A study of Oryza sativa Japonica Group with 12 samples.

Results

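Messenger RNA of 10 rice genes that make, split or move sucrose was followed through osmotic stress in whole seedlings. They are the sucrose synthases SUS1 to SUS4, the sucrose-phosphate synthase SPS1, the vacuolar invertases INV2 and INV3, and the sucrose transporters SUT1, SUT2 and SUT4. The genes were listed by locus number for these roles, and all 10 were found among the 29358 loci of the table. Sucrose is the sugar that plants send from leaves to growing tissues. It is built through sucrose-phosphate synthase, carried across membranes by sucrose transporters, and split where it is used. Sucrose synthase splits it reversibly, keeping the energy of the bond in UDP-glucose, while invertase splits it irreversibly into glucose and fructose. In the vacuole the invertase reaction raises the number of dissolved sugar molecules, and sugars are among the solutes that plant cells hold under water deficit.

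RNA sequencing was done on 5-day-old japonica rice seedlings of the wild type (WT, also labelled NIP) and of raf-b2/3, with 3 libraries in each of 4 groups. WT control and raf-b2/3 control seedlings had no mannitol, and WT mannitol and raf-b2/3 mannitol seedlings had 6 hours of 800 mM mannitol, a sugar alcohol that draws water out of cells. The study asked what B2 and B3 RAFs, Raf-like protein kinases, contribute to gene expression under osmotic stress. The labels call raf-b2/3 a knockdown in one place and a mutant in another, name no targeted loci, and do not say how many lines or seedlings were used. Levels are FPKM, the fragments of a gene scaled to its length and to the depth of the library. A log2 change is a difference on the log2(FPKM + 1) scale and so understates the change of genes with low levels. Changes were called where limma gave an adjusted p (Benjamini-Hochberg, over all 22371 loci tested) below 0.05.

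Between 37534836 and 39792489 recovered fragments lay behind the values of each library. Within groups, the correlation of libraries across loci was 0.981 to 0.993. The correlations of WT control 2 were the lowest, at 0.981 and 0.983, and the summed FPKM of 4 root marker genes (LSI1, LSI2, RCC3 and YSL15) was 115 in it, against 449 and 497 in WT control 1 and 3 and 551 to 661 in raf-b2/3 control. Each of the 4 root markers was lowest in WT control 2 among the WT control libraries. The root sum was 76.2 to 85.6 in WT mannitol and 59.8 to 89.0 in raf-b2/3 mannitol, and all 4 root markers fell in both genotypes. The summed FPKM of 4 green shoot markers was 19269 to 21384 and 19971 to 22308 in the WT and raf-b2/3 controls, and 9997 to 12104 and 11691 to 13847 under mannitol, where 2 of 4 fell in each genotype. A sum over 4 genes of the seed remnant ran from 3.43 to 847 FPKM over the control and mannitol libraries of raf-b2/3 and from 38.4 to 495 over those of WT. That sum is mostly RAMY1A, which ran from 0.67 to 844 FPKM in raf-b2/3 control and was not called. Of these 4, RAMY3D and GLUA1 rose under mannitol in both genotypes, RAMY3D from 0.0827 ± 0.0915 to 2.33 ± 0.353 FPKM in WT and from 0.2 ± 0.177 to 2.74 ± 0.808 in raf-b2/3 (SD, n = 3). GLUA2 was lower under mannitol without overlap, from 2.08 to 1.74 FPKM in WT and from 1.97 to 1.75 in raf-b2/3, and was not called. The part of these organ markers in the results below was not tested. In whole seedlings, fewer cells of a type and less RNA per cell cannot be told apart. No label states whether a group's 3 libraries were grown apart, so the p-values here rest on the spread among libraries, part or all of which may be technical.

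Mannitol moved the 10 genes in both directions. INV3, SUS4, SUT1 and SPS1 rose and SUS1 and SUS2 fell in both genotypes. Under mannitol, SUS4 and INV3 were lower in raf-b2/3 than in WT, by 2.46-fold and 2.05-fold in mean FPKM, and SUT2 by 1.24-fold. SUS3 was 4.19-fold lower, but was scarce and entered the test only through the WT mannitol libraries. Without mannitol no member was called different between the genotypes. The difference between the genotypes' responses was called for SUS4 (limma adjusted p 9.3e-04) and not for INV3 or SUT2.

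**Figure D1:**
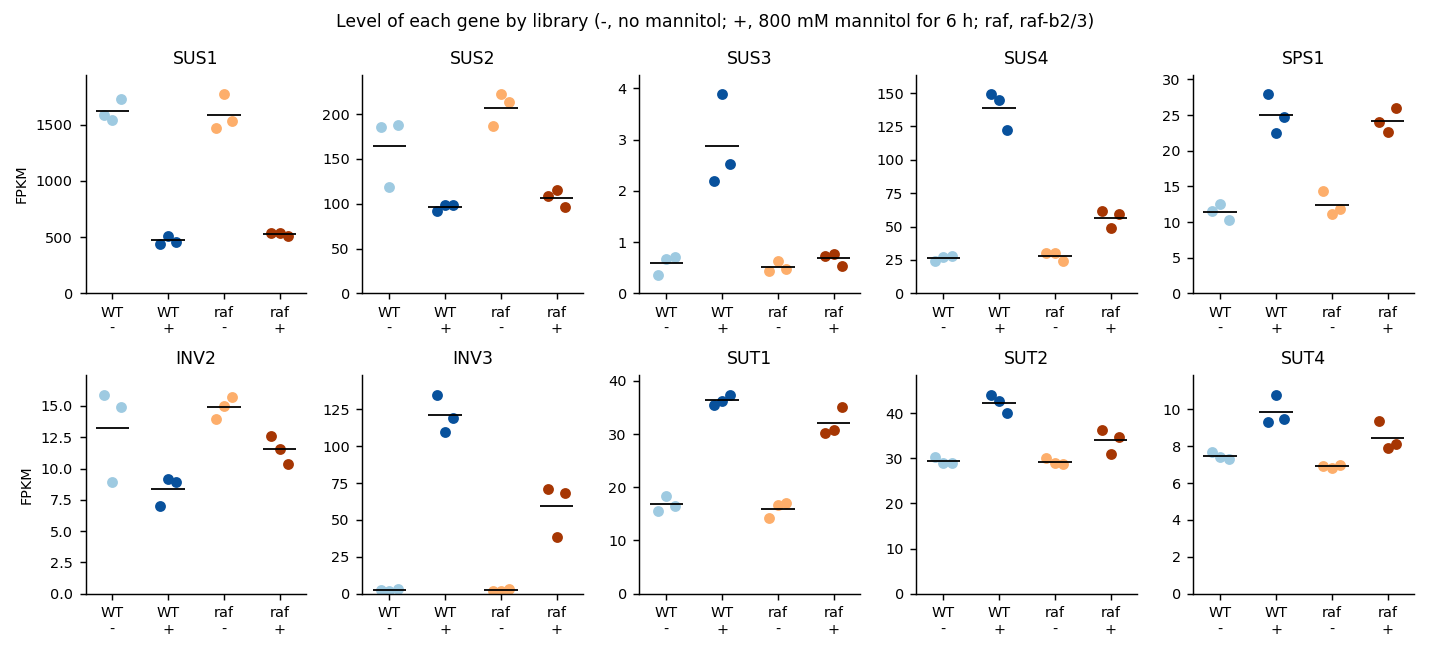
FPKM (y axis, linear, from 0) of the 10 genes in each library, with a panel per gene; points are libraries in replicate order, horizontal lines are the means of 3 libraries, and raf stands for raf-b2/3. SUS4 and INV3 under mannitol lie higher in every WT library (122 to 149 and 109.8 to 135 FPKM) than in any raf-b2/3 library (49.0 to 61.6 and 38.6 to 70.7).

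The genes differed widely in level. In WT control, SUS1 was the most abundant at 1620.1 ± 98.5 FPKM (SD, n = 3, as for every mean here) and SUS2 followed at 164 ± 39.6. SUT2 stood at 29.4 ± 0.753, SUS4 at 26.5 ± 1.92, SUT1 at 16.8 ± 1.38, INV2 at 13.3 ± 3.78 and SPS1 at 11.4 ± 1.08. SUT4 stood at 7.46 ± 0.189, INV3 at 2.58 ± 0.807 and SUS3 at 0.584 ± 0.194. Among neighbours in this order, the libraries of SUT1 overlapped with those of INV2, and those of INV2 with those of SPS1, and no others did. The order of means in raf-b2/3 control was the same, with SUT2 and SUS4 overlapping as well. Under mannitol the order in WT was SUS1, SUS4, INV3, SUS2, SUT2, SUT1, SPS1, SUT4, INV2 and SUS3, with SUS4 and INV3 as the only neighbours that overlapped. In raf-b2/3 mannitol it was SUS1, SUS2, INV3, SUS4, SUT2, SUT1, SPS1, INV2, SUT4 and SUS3, where INV3 overlapped with SUS4 and SUT2 with SUT1.

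SPS1 (LOC_Os01g69030) encodes a sucrose-phosphate synthase, the enzyme that commits UDP-glucose and fructose phosphate to sucrose. Its FPKM was 11.5, 12.5 and 10.3 in WT control and 27.9, 22.5 and 24.8 in WT mannitol. The raf-b2/3 values were 14.3, 11.2 and 11.8 without mannitol and 24.0, 22.6 and 26.0 with it. Every mannitol library lay above every control library, and the genotypes overlapped in both conditions. SPS1 rose by a log2 change of 1.07 (SE 0.11, limma adjusted p 2.8e-06) in WT and 0.91 (SE 0.11, adjusted p 1.2e-05) in raf-b2/3. The difference between the responses was -0.15 on the log2 scale (95% interval -0.47 to 0.17, limma adjusted p 0.68), and was not called.

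SUS1 (LOC_Os03g28330) and SUS2 (LOC_Os06g09450), the most abundant sucrose synthases of the control seedlings, fell. SUS1 stood at 1588, 1542 and 1731 FPKM in WT control and at 443, 513 and 455 in WT mannitol. For SUS1 in raf-b2/3 the values were 1469, 1768 and 1530.2 FPKM without mannitol and 537, 540.0 and 511 with it. The mannitol libraries of both genotypes were all far below the controls, and mean FPKM was 3.44-fold lower in WT and 3.00-fold lower in raf-b2/3. The log2 change was -1.78 (SE 0.10, limma adjusted p 2.8e-08) in WT and -1.58 (SE 0.10, adjusted p 1.0e-07) in raf-b2/3, and the responses differed by 0.20 (95% interval -0.10 to 0.50, adjusted p 0.51).

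SUS2 stood at 186, 119 and 188 FPKM in WT control and at 92.3, 99.1 and 98.8 in WT mannitol. The raf-b2/3 libraries held SUS2 at 187, 222 and 213 FPKM without mannitol and at 109, 115 and 96.9 with it. The low control value is that of WT control 2, which also had the low root marker sum, and the groups with and without mannitol still did not overlap. SUS2 fell by a log2 change of -0.73 (SE 0.15, limma adjusted p 9.8e-04) in WT and -0.94 (SE 0.15, adjusted p 1.5e-04) in raf-b2/3. Without WT control 2 the WT change was -0.95 (limma adjusted p 4.6e-06).

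SUS4 (LOC_Os03g22120), a sucrose synthase of rice best known from the developing grain, moved the other way. It stood at 24.4, 27.0 and 28.1 FPKM in WT control and at 149, 145 and 122 in WT mannitol. Its levels in raf-b2/3 were 30.0, 30.6 and 24.3 FPKM without mannitol and 61.6, 49.0 and 59.2 with it. The controls of the genotypes overlapped, while under mannitol every raf-b2/3 library lay between the controls and the WT mannitol libraries. Mean FPKM rose 5.25-fold in WT and 2-fold in raf-b2/3. The log2 changes were 2.35 (SE 0.11, limma adjusted p 1.0e-08) and 0.98 (SE 0.11, adjusted p 1.2e-05). The response was smaller in raf-b2/3 by 1.37 on the log2 scale (difference -1.37, SE 0.16, 95% interval -1.71 to -1.03, limma adjusted p 9.3e-04).

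SUS3 (LOC_Os07g42490), likewise described mainly from the grain, was scarce in the seedlings. It stood at 0.362, 0.673 and 0.718 FPKM in WT control and at 2.20, 3.88 and 2.52 in WT mannitol. The raf-b2/3 libraries stood at 0.435, 0.636 and 0.470 FPKM without mannitol and at 0.738, 0.775 and 0.540 with it. The 3 WT mannitol libraries were above all others, and the remaining groups overlapped each other. These levels rested on 41 to 83 fragments in WT control, 245 to 449 in WT mannitol, 49 to 75 in raf-b2/3 control and 61 to 89 in raf-b2/3 mannitol. SUS3 had an FPKM of 1 or more in the WT mannitol libraries alone and passed the filter on low values through them, so it had to differ there, and its call adds nothing to a count of members. Mean FPKM was 4.91-fold higher with mannitol in WT and 1.33-fold higher in raf-b2/3. On the log2 scale the change was 1.27 (SE 0.16, limma adjusted p 2.1e-05) in WT, against 0.15 (95% interval -0.19 to 0.50, adjusted p 0.42) in raf-b2/3. The responses differed by -1.12 (95% interval -1.61 to -0.63, limma adjusted p 0.021). That call was lost with a pseudocount of 0.1 (log2 difference -1.77, limma adjusted p 0.053) and with limma-voom on recovered fragments (-1.89, adjusted p 0.082).

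Taken as a family, the sucrose synthases dropped in level while their make-up shifted. The summed FPKM of SUS1 to SUS4 went from 1811 ± 130.5 to 709 ± 45.4 in WT and from 1825 ± 175 to 694 ± 22.9 in raf-b2/3. SUS1 made up 89.5% ± 1.62 of that sum in WT control and 66.3% ± 1.55 in WT mannitol, while in raf-b2/3 its share was 87.0% ± 0.463 and 76.3% ± 0.449. SUS4 made up 1.47% ± 0.124 in WT control and 19.6% ± 1.90 in WT mannitol, while in raf-b2/3 its share was 1.56% ± 0.205 and 8.17% ± 1.06. The SUS4 share under mannitol was 18.0% to 21.7% in the WT libraries and 6.95% to 8.87% in those of raf-b2/3, which do not overlap. The summed level under mannitol overlapped between the genotypes.

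**Figure D2:**
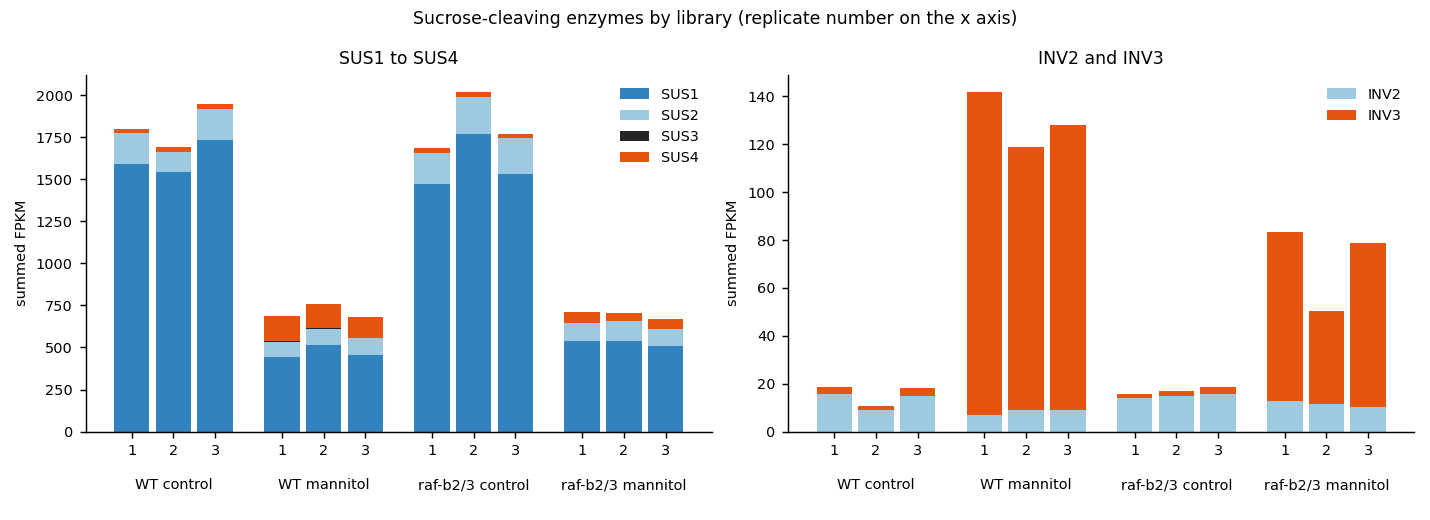
Summed FPKM (y axis, from 0) of the sucrose synthases SUS1 to SUS4 (left) and of the vacuolar invertases INV2 and INV3 (right), with a stacked bar per library and colours for the genes. The SUS4 segment under mannitol is taller in WT (19.6% of the sum on average) than in raf-b2/3 (8.17%), and INV3 fills most of the invertase bar under mannitol in both genotypes (93.5% and 82.9%).

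INV3 (LOC_Os02g01590), a vacuolar invertase, had the largest response of the 10 genes. It stood at 2.68, 1.72 and 3.33 FPKM in WT control and at 135, 109.8 and 119 in WT mannitol. In raf-b2/3 it stood at 1.86, 2.06 and 2.96 FPKM without mannitol and at 70.7, 38.6 and 68.2 with it. All mannitol libraries lay far above all controls, and every raf-b2/3 mannitol library was below every WT mannitol library. Mean FPKM rose 47.0-fold in WT, from 2.58 ± 0.807 to 121 ± 12.8, and 25.8-fold in raf-b2/3, from 2.30 ± 0.584 to 59.2 ± 17.8. The log2 changes were 5.11 (SE 0.22, limma adjusted p 6.7e-09) and 4.16 (SE 0.22, adjusted p 4.1e-08). The difference between the responses was -0.96 (95% interval -1.65 to -0.27), with a raw p of 0.01 and a limma adjusted p of 0.14, so it was not called.

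INV2 (LOC_Os04g45290), the other vacuolar invertase, was lower under mannitol. It stood at 15.9, 8.93 and 14.9 FPKM in WT control and at 7.03, 9.16 and 8.94 in WT mannitol. Its levels in raf-b2/3 were 14, 15 and 15.7 FPKM without mannitol and 12.6, 11.6 and 10.4 with it. The WT groups overlapped through WT control 2, at 8.93 FPKM, while the raf-b2/3 groups did not. INV2 fell in WT by a log2 change of -0.57 (SE 0.17, limma adjusted p 0.01), and by -0.82 (adjusted p 6.4e-05) without WT control 2. Its change in raf-b2/3 was -0.35 (95% interval -0.71 to 0.02, limma adjusted p 0.093). Without WT control 2, which also enters the shared estimate of the spread, that same change of -0.35 had an adjusted p of 0.0097.

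The level of INV2 plus INV3 went from 15.8 ± 4.49 to 129.6 ± 11.7 FPKM in WT and from 17.2 ± 1.38 to 70.7 ± 17.9 in raf-b2/3. INV2 made up 83.7% ± 1.89 of it in WT control and 86.8% ± 2.31 in raf-b2/3 control. Under mannitol INV3 made up 93.5% ± 1.43 in WT and 82.9% ± 5.23 in raf-b2/3, so the more abundant of the pair changed over in both genotypes.

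Of the transporters, SUT1 (LOC_Os03g07480), a sucrose transporter of the plasma membrane, rose most. It stood at 15.6, 18.3 and 16.5 FPKM in WT control and at 35.4, 36.2 and 37.4 in WT mannitol. The raf-b2/3 libraries had SUT1 at 14.2, 16.7 and 17.1 FPKM without mannitol and at 30.2, 30.8 and 35.1 with it. The mannitol libraries were above all controls, and those of raf-b2/3 were all below those of WT. SUT1 rose by a log2 change of 1.08 (SE 0.08, limma adjusted p 4.6e-07) in WT and 0.96 (SE 0.08, adjusted p 1.6e-06) in raf-b2/3. The responses differed by -0.11 (95% interval -0.38 to 0.15, limma adjusted p 0.71).

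SUT2 (LOC_Os12g44380) sits in the vacuolar membrane and carries sucrose out of the vacuole. It stood at 30.3, 29.0 and 29.0 FPKM in WT control and at 44.1, 42.8 and 40.0 in WT mannitol. Its levels in raf-b2/3 were 30.1, 28.9 and 28.7 FPKM without mannitol and 36.3, 31.0 and 34.8 with it. Mannitol and control libraries did not overlap, and the raf-b2/3 mannitol libraries lay between the controls and the WT mannitol libraries. SUT2 rose by a log2 change of 0.51 (SE 0.07, limma adjusted p 2.6e-05) in WT and 0.21 (SE 0.07, adjusted p 0.015) in raf-b2/3. The raf-b2/3 call was lost under median-of-ratios scaling (0.14, limma adjusted p 0.087), under quantile normalization (0.13, adjusted p 0.11) and without raf-b2/3 mannitol 1 (0.16, adjusted p 0.056). The responses differed by -0.30 (95% interval -0.50 to -0.10, raw p 0.0068, limma adjusted p 0.11), which was not called.

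SUT4 (LOC_Os02g58080), another sucrose transporter, changed little. It stood at 7.67, 7.40 and 7.31 FPKM in WT control and at 9.32, 10.8 and 9.50 in WT mannitol. In raf-b2/3 it stood at 6.95, 6.80 and 7.01 FPKM without mannitol and at 9.38, 7.89 and 8.14 with it. The mannitol libraries lay above the controls of their genotype, and the genotypes overlapped under mannitol. SUT4 rose by a log2 change of 0.36 (SE 0.08, limma adjusted p 0.0016) in WT and 0.25 (SE 0.08, adjusted p 0.013) in raf-b2/3. The raf-b2/3 call was lost under quantile normalization (0.15, limma adjusted p 0.10) and without raf-b2/3 mannitol 1 (0.19, adjusted p 0.057). The summed FPKM of the 3 transporters went from 53.6 ± 0.953 to 88.5 ± 1.44 in WT and from 52.2 ± 0.857 to 74.5 ± 4.38 in raf-b2/3.

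**Figure D3:**
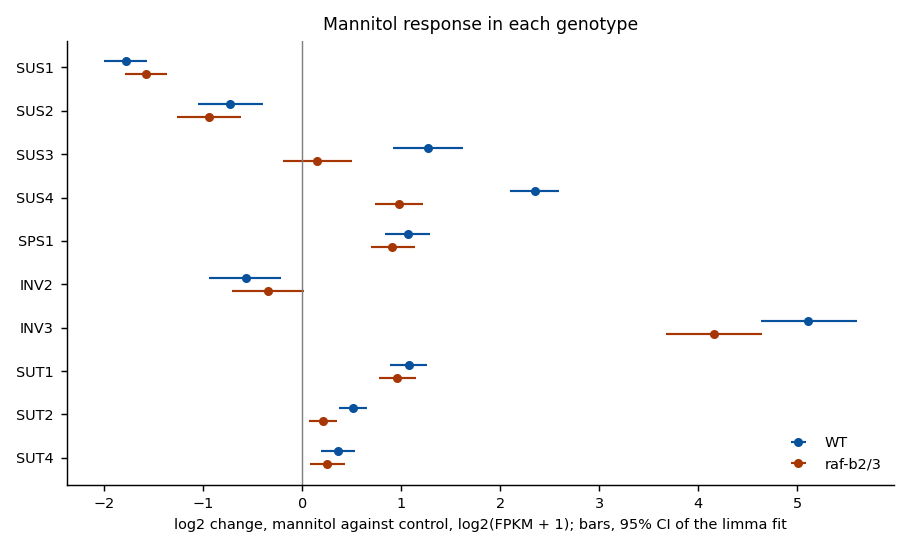
Log2 change under mannitol on the log2(FPKM + 1) scale (x axis) for each gene (y axis) in WT (blue) and raf-b2/3 (brown); points are limma estimates and bars their 95% intervals. INV3 lies farthest to the right in both genotypes (5.11 and 4.16), SUS1 farthest to the left (-1.78 and -1.58), and the SUS4 intervals are far apart.

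Counted over the list, in WT all 10 members were called, 7 higher and 3 lower, SUS3 among them for the reason given above. Of all loci tested, 63.3% were called in that response, 37.7% higher and 25.5% lower. Where a log2 change of 1 or more, up or down, was also required, 5 members were higher and 1 lower in WT, against 8.2% and 5.59% of loci. In raf-b2/3, 8 members were called, 6 higher and 2 lower, against 62.2% of loci, 35.6% higher and 26.7% lower. With the same size of change, 1 member was higher and 1 lower, against 7.49% and 4.93% of loci. The median log2 change of the members was 0.79 in WT and 0.23 in raf-b2/3, beside 0.09 and 0.07 over all loci. SUS3, which had to be high in WT mannitol, is part of the WT median and of the 5 members above. The groups of 9 members did not overlap in each response, the exceptions being INV2 in WT and SUS3 in raf-b2/3, against 69.1% and 66.5% of loci. The 9 in WT include SUS3, which had to differ there.

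The genotypes were next compared directly. Without mannitol, 0 of the 10 members were called by limma or by limma-voom. Only 1, SUS2, had an unadjusted limma p under 0.05, a threshold at which all loci were not counted. Over all loci tested 1.81% were called. SUS2 was the member farthest from 0, with a WT mean of 164 ± 39.6 FPKM and a raf-b2/3 mean of 207 ± 18.5 (log2 difference 0.36, 95% interval 0.04 to 0.68, limma adjusted p 0.28), and the libraries overlapped. Without WT control 2, which held SUS2 at 119 FPKM, the difference was 0.14 (limma adjusted p 0.66). Only the SUT4 groups did not overlap, at 7.31 to 7.67 FPKM in WT and 6.80 to 7.01 in raf-b2/3, while 21.3% of all loci had groups that did not overlap. The median difference of the members was -0.02, beside 0.01 for all loci.

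Under mannitol, 4 members were called, all lower in raf-b2/3, against 15.8% of loci called, 8.37% higher and 7.47% lower. SUS3 is again among them as a gene that passed the filter through WT mannitol. In the same comparison the green shoot marker RCA was higher in raf-b2/3, at 2165 ± 191 against 1439 ± 236 FPKM (log2 difference 0.60, limma adjusted p 0.019). The root markers went both ways. LSI1 stood at 15.9 ± 3.84 against 35.1 ± 1.30 FPKM, without overlap (-1.12, limma adjusted p 0.076). LSI2 was the higher in raf-b2/3, also without overlap, at 3.13 ± 0.367 against 2.10 ± 0.611 FPKM. RCC3 (55.1 against 41.0 FPKM) and YSL15 (2.20 against 2.21) overlapped. The 4 root, the other 3 green shoot and the 4 seed remnant markers were not called, and the part of these markers in the differences was not tested. SUS4 had a WT mean of 139 ± 14.5 FPKM and a raf-b2/3 mean of 56.6 ± 6.69 (log2 difference -1.28, SE 0.11, limma adjusted p 2.2e-05). For SUS3 the means were 2.87 ± 0.891 and 0.684 ± 0.126 FPKM (-1.18, SE 0.16, limma adjusted p 4.4e-04). INV3 was at 121 ± 12.8 and 59.2 ± 17.8 FPKM (-1.07, SE 0.22, limma adjusted p 0.0072). These 3 passed a log2 difference of 1 in size, as did 1.13% of loci on the lower side. SUT2 was at 42.3 ± 2.06 and 34.0 ± 2.75 FPKM, a smaller difference (-0.31, SE 0.07, limma adjusted p 0.0076).

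INV2 was the one member with a higher mean in raf-b2/3 and libraries that did not overlap, at 8.38 ± 1.17 and 11.5 ± 1.1 FPKM. Its log2 difference of 0.42 (95% interval 0.05 to 0.79) had a limma adjusted p of 0.12, and of 0.013 without WT control 2. In all, 6 members had groups that did not overlap (SUS3, SUS4, INV2, INV3, SUT1 and SUT2), against 33.8% of loci. SUS3 passed the filter only through WT mannitol, so it adds nothing to the 6. SPS1 was closest to 0, with a log2 difference of -0.05 (95% interval -0.27 to 0.18, limma adjusted p 0.82). SUS1, at 470.4 ± 37.2 and 529 ± 16.1 FPKM, differed by 0.17 (95% interval -0.04 to 0.38, limma adjusted p 0.27).

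**Figure D4:**
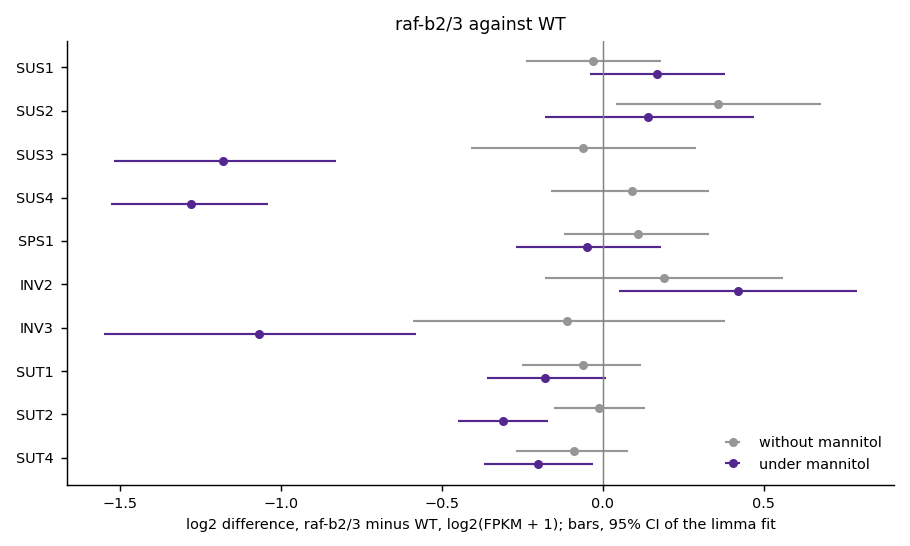
Log2 difference of raf-b2/3 minus WT on the log2(FPKM + 1) scale (x axis) for each gene (y axis), without mannitol (grey) and under mannitol (purple); points are limma estimates and bars their 95% intervals. SUS3, SUS4 and INV3 lie below -1 under mannitol (-1.18, -1.28 and -1.07), while the grey points lie between -0.11 and 0.36.

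The difference between the responses of the genotypes was called for 2 of the 10 members, SUS4 and SUS3, both with the smaller response in raf-b2/3 and SUS3 again through that filter. Over all loci, 2.98% were called, 1.02% with a positive and 1.96% with a negative difference. The median difference was -0.18 for the members, SUS3 included, and -0.03 for all loci. The 5 comparisons share libraries, so a WT mannitol library enters the WT response, the difference of responses and the genotype difference under mannitol alike.

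In the authors' deposited table, the log2 fold change of SUS4 under mannitol was 2.28 in WT and 0.93 in raf-b2/3, and that of SUS3 was 2.18 and 0.34. The authors' deposited table places SUS3 and SUS4 in a class of 440 loci marked as up under mannitol in WT alone. INV3, at 5.45 and 4.61 in the authors' deposited table, is in a class of 680 loci marked as up in both genotypes. Every locus classed in the authors' deposited table had a log2 fold change of 2 or more in size, so SUS4 is outside the raf-b2/3 class with a value of 0.93 while it rose there by the test above. The other 7 members carry no class in the authors' deposited table, where SUS1 was at -1.89 and -1.66. In raf-b2/3 the authors' deposited table differs from 3 outcomes above. SUT2 and SUT4, called above, were at 0.14 (authors' deposited p 0.14) and 0.21 (0.071). INV2, not called above, was at -0.45 in the authors' deposited table (authors' deposited p 3.0e-05). Whether these deposited p-values are adjusted is not stated.

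Another 32 genes of sucrose and hexose use were listed by name, covering further isoforms of these enzymes and the kinases and pyrophosphorylases next to them. Of these, 29 were found and 27 passed the filter. CIN3, SUT3 and HXK10 were not analysed here, and SUT5 and HXK1 were below the filter. In WT, 7 of the 27 rose and 10 fell, and in raf-b2/3, 8 rose and 11 fell. These calls are 63% and 70.4% of the 27, near the 63.3% and 62.2% of all loci. Their median log2 change was -0.16 in WT and -0.02 in raf-b2/3.

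The cell wall invertases, which split sucrose outside the cell, all changed in both genotypes, 1 of 3 higher and 2 lower. Of all loci, 63.3% were called in WT and 62.2% in raf-b2/3. The higher one, CIN1, rose little in WT (log2 change 0.24, limma adjusted p 0.029) and was called there in 13 of 18 alternatives. CIN2, known as a grain-filling gene of rice, stood at 24.6, 24.4 and 24.7 FPKM in WT control and at 5.63, 4.29 and 5.30 in WT mannitol. In raf-b2/3, CIN2 stood at 26.6, 33.5 and 27.9 FPKM without mannitol and at 17.9, 11.1 and 10.4 with it. Its libraries under mannitol were lowest in WT and did not overlap with those of raf-b2/3. Without mannitol the WT libraries of CIN2 were also the lower, without overlap, and that difference was not called. CIN2 fell by a log2 change of -2.08 in WT and -1.14 in raf-b2/3 (limma adjusted p 4.2e-07 and 7.2e-05). The responses differed by 0.94, with a limma adjusted p of 0.049 that lay between 0.025 and 0.12 over 18 alternatives and passed in 6 of them.

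Both neutral invertases, which act inside the cell outside the vacuole, rose in each genotype, as did 37.7% of all loci in WT and 35.6% in raf-b2/3. NIN1 stood at 6.93, 5.74 and 6.59 FPKM in WT control and at 20.1, 18.8 and 19.5 in WT mannitol. In raf-b2/3, NIN1 stood at 7.56, 9.22 and 7.86 FPKM without mannitol and at 16.2, 16.6 and 15.7 with it. The WT mannitol libraries were the highest and did not overlap with those of raf-b2/3. This difference under mannitol was not called, and was called in 5 of 18 alternatives (limma adjusted p 0.031 to 0.17). Without mannitol raf-b2/3 was the higher, at 7.56 to 9.22 against 5.74 to 6.93 FPKM, without overlap and not called. NIN1 rose by a log2 change of 1.47 in WT and 0.90 in raf-b2/3 (limma adjusted p 3.5e-08 and 2.1e-06), and the responses differed by -0.57 (adjusted p 0.024), a call lost when any 1 WT mannitol library was left out (adjusted p 0.053 to 0.08). The other, CYT-INV1, was higher in raf-b2/3 under mannitol, at 88.4 ± 6.79 FPKM against 60.5 ± 0.935 (log2 difference 0.54, limma adjusted p 2.7e-04). CYT-INV1 was also higher in raf-b2/3 without mannitol, without overlap, at 57.5 ± 3.66 against 49.1 ± 1.85 FPKM, and was not called there.

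Of 8 hexokinases, which phosphorylate the released hexoses, 1 rose and 4 fell in WT, and 2 rose and 5 fell in raf-b2/3. That is 62.5% and 87.5% of them called, beside 63.3% and 62.2% of all loci. HXK7 stood at 7.37, 6.67 and 7.36 FPKM in WT control and at 24.5, 19.8 and 25.0 in WT mannitol. In raf-b2/3, HXK7 stood at 8.70, 13.3 and 9.35 FPKM without mannitol and at 65.6, 57.8 and 40.9 with it. Here raf-b2/3 was the higher genotype under mannitol, without overlap (log2 difference 1.19, limma adjusted p 6.9e-04). It was also the higher without mannitol, without overlap, at 10.5 ± 2.49 against 7.14 ± 0.402 FPKM, a difference not called. The log2 change of HXK7 was 1.56 in WT and 2.28 in raf-b2/3 (limma adjusted p 7.2e-06 and 4.8e-07), and the difference of 0.72 between them was not called (adjusted p 0.15).

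FRK2, a fructokinase that takes up the fructose of the sucrose synthase reaction, fell from 426 ± 10.7 to 152 ± 4.26 FPKM in WT and from 364 ± 25.6 to 151 ± 4.66 in raf-b2/3. Its log2 change was -1.48 in WT and -1.26 in raf-b2/3 (limma adjusted p 7.1e-09 and 3.0e-08). The sucrose-phosphate synthases SPS6 and SPS8 were lower in raf-b2/3 under mannitol, at 26.0 ± 2.92 against 32.6 ± 1.76 FPKM for SPS6 and 55.3 ± 5.51 against 77.4 ± 6.75 FPKM for SPS8 (log2 differences -0.32 and -0.48, limma adjusted p 0.016 and 0.0046). CIN4 was higher there, at 7.30 ± 0.724 against 5.48 ± 0.419 FPKM (log2 difference 0.36, limma adjusted p 0.029). Without mannitol CIN4 was also higher in raf-b2/3 without overlap, at 12.5 ± 1.66 against 10.2 ± 0.567 FPKM, and was not called. The CIN4 call was lost without WT mannitol 1, WT mannitol 2 or raf-b2/3 mannitol 2 (limma adjusted p 0.10 to 0.11), and the SPS6 call without WT mannitol 1 or raf-b2/3 mannitol 2 (0.077 and 0.051). With CIN2, CYT-INV1 and HXK7, this made 6 of the 27 called under mannitol, 4 higher and 2 lower in raf-b2/3, which is 22.2% of them beside 15.8% of all loci (8.37% higher and 7.47% lower). Without mannitol, 0 of the 27 were called by limma or limma-voom, while limma called 1.81% of all loci. An unadjusted limma p under 0.05 was found for 11 of the 27. The share of all loci at that unadjusted threshold was not counted, so the 11 cannot be weighed. In that comparison CIN2, CIN4, NIN1, CYT-INV1, HXK7 and HXK9 were higher in raf-b2/3 without overlap. SUS5, SUS6, CIN1, FRK1 and FRK2 were lower there without overlap. Over all loci tested, 21.3% had groups that did not overlap without mannitol, counting both directions.

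**Figure D5:**
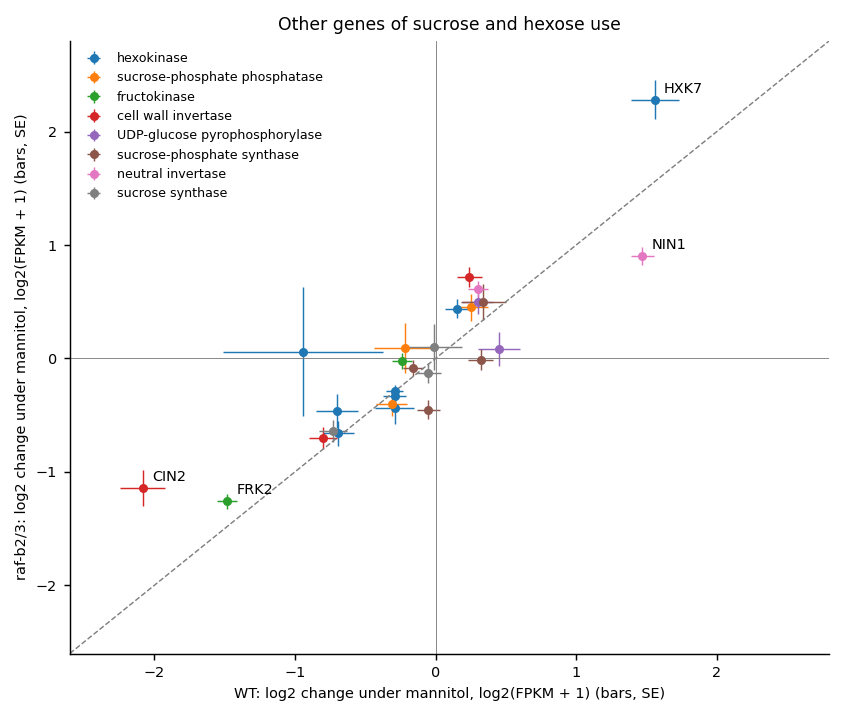
Log2 change under mannitol on the log2(FPKM + 1) scale in raf-b2/3 (y axis) against that in WT (x axis) for the 27 other listed sugar genes; points are limma estimates with bars of 1 standard error, colours are enzyme classes, and the dashed line marks equal changes. CIN2, FRK2, NIN1 and HXK7 are named, having moved by 1 or more in WT, and CIN2 (-2.08 and -1.14) and HXK7 (1.56 and 2.28) lie above the line while NIN1 (1.47 and 0.90) lies below it.

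For each member, the listed sugar gene with the most alike pattern was found by the root mean square difference of log2(FPKM + 1), centred on each gene's mean, over the 12 libraries and 36 candidates. The closest were SUT2 and SUT4, at 0.08 from each other, and SPS1 and SUT1, at 0.17 from each other. SUS1 lay nearest to FRK2 (0.19), SUS2 to CIN4 (0.21) and INV2 to HXK9 (0.17). SUS4 lay nearest to NIN1 (0.47) and SUS3 to SUT2 (0.40), while INV3 lay far from its nearest gene, SUS4 (1.51). Genes that change little lie close by this measure, since their own spread is small: it was 0.22 for SUT2 and 0.18 for SUT4, against 0.96 for SUS4 and 2.36 for INV3.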

How the data were processed

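RNA was sequenced in 12 libraries from whole seedlings. The authors deposited FPKM per locus and library, together with their own log2 fold changes and p-values, and class labels, for mannitol against control in each genotype. Per the submitters' processing notes, Trimmomatic, DESeq2, edgeR and the build IRGSP-1.0 were used, with no versions. The aligner, the annotation, the strand setting and the handling of reads shared by paralogs are each not given in the sources used here, so reads of similar sucrose synthases, or of overlapping genes, may have been shared.

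Whole fragments were recovered from the steps between low FPKM values for all 29358 loci, which gave the depths. For the main test, limma 3.58.1 (R 4.3.3) with a mean-variance trend was fitted to log2(FPKM + 1) over all 12 libraries, with 1 mean per group. A locus was tested if 3 or more libraries had it at an FPKM of 1 or above (22371 loci), and p-values were Benjamini-Hochberg adjusted over all of them. The fit was checked on simulated data. Alternatives were a pseudocount of 0.1, no filter, median-of-ratios scaling, quantile normalization, a replicate block, limma-voom on recovered fragments, and leaving out each library.

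All 10 members were named. Other sugar genes were named where they passed the adjusted p with a log2 change of 1 in a response, or the adjusted p in a genotype comparison. The nearest gene to each member was also named, as were genes whose groups without mannitol did not overlap between the genotypes. The members and lists were chosen with earlier results of these data known. Of the 10 member names, 7 matched a RefSeq gene table (ASM3414082v1) by symbol, chromosome and order, and SPS1, INV2 and INV3 had no symbol there. No sequences or coordinates are given.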

Additional observations from a re-analysis of the deposited data

Results flagged for a closer look

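The mannitol response differed between the genotypes, by a test of the difference itself, for 4 of the genes described. For SUS4 the response of raf-b2/3 minus that of WT was -1.37 on the log2 scale (limma adjusted p 9.3e-04). For SUS3 it was -1.12 (limma adjusted p 0.021), at mean levels under 1 FPKM in 3 of the 4 groups. SUS3 passed the filter only through the WT mannitol libraries, where it is high, and its call was lost with a pseudocount of 0.1 (limma adjusted p 0.053) and with limma-voom (0.082). For NIN1 it was -0.57 (limma adjusted p 0.024), and for CIN2 it was 0.94 (limma adjusted p 0.049). The NIN1 call was lost when any 1 WT mannitol library was left out (limma adjusted p 0.053 to 0.08), and the CIN2 call held in 6 of 18 alternatives (adjusted p 0.025 to 0.12). NIN1 was higher in raf-b2/3 without mannitol, without overlap, at 8.21 ± 0.887 against 6.42 ± 0.615 FPKM. Neither its difference without mannitol nor that under mannitol was called. The response was a rise in SUS4, SUS3 and NIN1 and a fall in CIN2. In all 4 genes the estimated response was smaller in raf-b2/3 than in WT. They were picked by that call, so their shared direction does not describe the sugar genes as a whole. Among differences not called, the estimated rises of INV3 and SUT2 were smaller in raf-b2/3, and those of HXK7 and CYT-INV1 were larger. Over all loci, 2.98% were called, 1.02% with a positive and 1.96% with a negative difference.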

How the results depend on the processing

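Of 900 refits of the 50 member values (10 genes in 5 comparisons, 15 refits added after the data were seen), 876 kept their direction and side of the threshold, 7 lost a call, 5 gained one and 12 changed sign. The SUS4 difference of responses was called in all 18 alternatives (log2 -1.47 to -1.27, limma adjusted p 0.0012 to 0.0058), and so were the differences of SUS4, INV3 and SUT2 under mannitol. That of SUS3 was called in all 15 alternatives, leaving the added ones aside, in which it was tested. Wherever the filter applied, SUS3 passed through WT mannitol alone and had to differ there, so those calls add nothing. The count of members whose responses differed fell from 2 to 1 with a pseudocount of 0.1 and with limma-voom, through SUS3. Without WT mannitol 1, 2 or 3, SUS3 no longer passed the filter. In the added fits, made with no filter after the data were seen, its difference of responses was then -1.24, -0.94 and -1.17 (limma adjusted p 0.021, 0.024 and 0.035).

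Leaving out each library, members called ranged from 9 to 10 in WT, 6 to 9 in raf-b2/3, 1 to 2 for the difference of responses, 0 without mannitol and 3 to 5 under mannitol, the low ends in WT and under mannitol being fits that lack SUS3. The 6 came without raf-b2/3 mannitol 1. INV2 in WT had a limma adjusted p of 0.05 without WT control 1 (log2 -0.43), and SUT4 under mannitol was called without raf-b2/3 mannitol 1 (-0.27, adjusted p 0.045). The other sugar genes ranged from 14 to 20, 17 to 19, 0 to 3, 0 to 1 and 4 to 8, in the same order. The interaction call of NIN1 was lost without each WT mannitol library (limma adjusted p up to 0.08).

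Changes of sign fell among values near 0 that were never called: SUS1 without mannitol (0.07 under quantile normalization, -0.11 to 0.02 leaving out libraries), SUS2 in the difference of responses (-0.33 to 0.00), SPS1 under mannitol (-0.12 to 0.03), and, without mannitol, SUS3 (-0.17 to 0.00), INV2 (-0.05 to 0.33), INV3 (-0.29 to 0.04), SUT1 (-0.11 to 0.01) and SUT2 (-0.03 to 0.01). Quantile normalization moved the median of all loci in WT from 0.094 to -0.013. The split of raf-b2/3 calls went from 6 higher and 2 lower to 5 and 3 under median-of-ratios scaling and to 4 and 3 under quantile normalization, where INV2 was called (-0.41 and -0.46, limma adjusted p 0.044 and 0.031). Over all loci, 666 differed in response, against 367 by limma-voom and 263 to 745 leaving out libraries, and 404 differed without mannitol, against 175 to 425. The cause of these changes was not tested.

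Same-numbered libraries showed no steady shared deviation from their group means (correlations of -0.311 to 0.265). With means of 3 libraries, this cannot show whether same-numbered libraries shared a batch. The replicate block left the member counts at 10, 8, 2, 0 and 4, and the INV3 difference of responses at -0.96 (limma adjusted p 0.057). With 3 libraries a group, small differences are limited by the spread between libraries. For SUS3 depth also limits, at 41 to 89 fragments outside WT mannitol.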
